A study of Mus musculus with 6 samples.

Results

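MAP kinase phosphatases are enzymes that switch off mitogen-activated protein kinases. The 10 genes described here, Dusp1, Dusp2, Dusp4, Dusp5, Dusp6, Dusp7, Dusp8, Dusp10, Dusp16 and Dusp26, were chosen by gene symbol from the 54532 genes of a mouse muscle count table. They were proposed when differences between the study's groups, Dusp4 among them, were already known. Their differences between the groups, with p-values as they stand in the fit of the whole table, are therefore a description and no independent evidence. All 10 passed the filter on low counts and were among the 14973 genes tested.

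The tissue was gastrocnemius, a calf muscle made mostly of fast fibres, from C57BL/6J mice 3 months old. All mice carried Mck cre, a Cre recombinase driven by the muscle creatine kinase promoter, and all had drinking water with 0.2% doxycycline from 4 weeks of age. The 3 control libraries (Ctrl) came from mice with Mck cre alone. The 3 libraries of the other group (MP) came from mice labelled Mck cre; Tg Glut1-Hk2-Pfkfb3, a transgene named for a glucose carrier, a hexokinase and the enzyme that makes the activator of phosphofructokinase. Cre acts in muscle fibres with this driver, while the RNA came from whole muscle, so a level is a mix over fibres and the other cells between them, and fewer cells of a type cannot be told apart from less RNA per cell.

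Growth factors, stress and contraction activate the kinase families ERK, JNK and p38 by adding phosphate to a threonine and a tyrosine of the kinase. Dual-specificity phosphatases remove both phosphates. Some are made on demand after a kinase has been active and act as feedback in the nucleus, others stay in the cytoplasm and prefer ERK, and others prefer JNK and p38. In skeletal muscle these kinases respond to exercise, insulin and injury, and ERK activity takes part in keeping fibre type and in the proliferation of satellite cells, the muscle's stem cells.

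The members share their catalytic site, a cysteine that takes the phosphate and an arginine that holds it. The translated coding sequence of 10 of 10 members held 1 match to this signature (histidine, cysteine, 5 residues of any kind, arginine). The coding bases of the site are shown for Dusp4 and Dusp26, which changed in opposite directions, for Dusp1, whose site is close to that of Dusp4, and for Dusp6, a cytoplasmic member. They were read 5′ to 3′ from GENCODE M21 transcripts (GRCm38), with the codons of the cysteine and the arginine in capitals.
Dusp4: cacTGCcaggccggcatctccCGA
Dusp1: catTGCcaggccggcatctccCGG
Dusp6: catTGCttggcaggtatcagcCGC
Dusp26: cacTGTgcggtgggagtgagcAGA
Of the 24 bases of Dusp4, 22 were the same in Dusp1, 16 in Dusp6 and 13 in Dusp26. Among all 10 members the site of Dusp26 was the least like that of Dusp4. The open reading frames translated to between 211 residues (Dusp26) and 663 residues (Dusp8), with 398 in Dusp4. Dusp26 belongs to the small atypical phosphatases, which lack the kinase-binding domain of the other 9.

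The 6 libraries held 19546456 to 24665024 counts each. Levels are CPM, counts scaled to a common TMM library size. None of the 3 mouse genes named in the transgene passed edgeR's test (adjusted p from 0.196 to 0.381), and Pfkfb3 lay lower in every library labelled transgenic, at 120 to 542 CPM against 579 to 1585 CPM. Slc2a1, which encodes GLUT1, had 12 to 23.3 CPM in controls and 8.05 to 13.5 CPM in the other group, and Hk2 had 156 to 187 and 168 to 341 CPM. Whether RNA of the transgene was counted under these genes was not tested, and the groups are called by their labels throughout. Control replicate 1 stood apart, with correlations of log2 CPM of 0.947 to 0.961 with the other 5 libraries, which correlated at 0.962 to 0.988 among themselves. Markers of fast muscle fibres were abundant in every library, with 9 genes that summed to 116353 to 176970 CPM. Of these, 8 had a negative log2 fold change of transgenic over control (median of the 9 genes -0.27), and none passed edgeR's test.

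Of the 10 members, 1 rose and 1 fell in the libraries labelled transgenic, where a call means a Benjamini-Hochberg adjusted p under 0.05 by edgeR. Dusp4, a nuclear phosphatase of ERK and JNK, rose about 4-fold. Dusp26, an atypical phosphatase found in muscle and nerve and described as acting on p38, fell to about 0.5 of its control level. The other 8 did not pass. Among all tested genes 194 passed, or 1.30%, with 0.788% higher and 0.508% lower. Because the members were named with this comparison in view, nothing is read from their count against these shares. The median log2 fold change of the members was -0.24, beside -0.03 for all tested genes, and 3 had a positive and 7 a negative value.

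**Figure D1:**
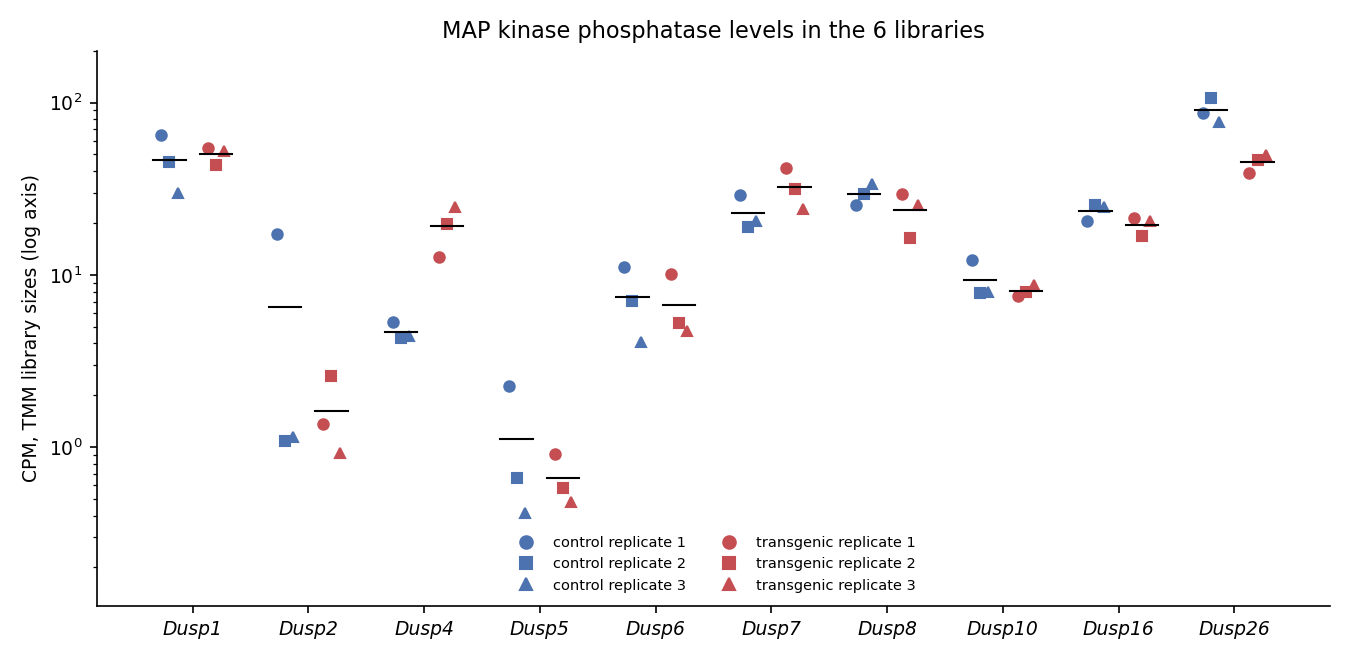
Level of each gene in CPM on a log axis, 1 point per library (blue, control; red, labelled transgenic; marker shape, replicate number) with a black line at the group mean. Dusp4 sits higher and Dusp26 lower in all 3 libraries labelled transgenic, and control replicate 1 is far above the other libraries for Dusp2.

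Dusp4 (ENSMUSG00000031530, chromosome 8, 34807297 to 34819894, plus strand, GRCm38) is itself induced by ERK activity and restrains it in the nucleus. It had 5.30, 4.30 and 4.42 CPM in control replicates 1, 2 and 3 and 12.7, 19.7 and 24.8 CPM in replicates 1, 2 and 3 labelled transgenic. All 3 libraries labelled transgenic lay above all 3 controls. The 3 controls were close together, with a coefficient of variation of 11.6%, against 31.8% in the other group. The raw counts behind these values were 127, 91 and 96 in controls and 308, 406 and 620 in the others. The means were 4.67 ± 0.543 and 19.1 ± 6.07 CPM (SD, n = 3 each). This is a log2 fold change of 2.03 ± 0.26 (SE), with a 95% interval from 1.41 to 2.64 and an adjusted p of 0.0240 over all genes in edgeR.

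The rise of Dusp4 was as large without control replicate 1, at a log2 fold change of 2.12 (edgeR adjusted p = 0.0113). Leaving out control replicate 2 or 3 ended the call (adjusted p = 0.0997 and 0.153), as did leaving out transgenic replicate 2 or 3 (0.119 and 0.137), with log2 fold changes of 1.79 or more. It also ended with limma on log2(FPKM + 1), at 1.52 (adjusted p = 0.135), and on log2(FPKM + 0.1), at 1.92 (0.0745). Few genes of any kind passed in these fits. Calls over all genes numbered 3 and 0 without control replicate 2 or 3, against 194 with all libraries. They numbered 1 and 1 without transgenic replicate 2 or 3, and 0 and 16 with limma on the FPKM scales.

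Dusp26 (ENSMUSG00000039661, chromosome 8, 31089471 to 31097047, plus strand) was the most abundant member in controls. It had 87.1, 106 and 77.1 CPM in control replicates 1, 2 and 3 and 39.0, 46.4 and 49.8 CPM in the libraries labelled transgenic. No library labelled transgenic reached the lowest control. Both groups were tight, with coefficients of variation of 16.4% and 12.3%. The means were 90.1 ± 14.7 and 45.1 ± 5.53 CPM (SD, n = 3 each), and the log2 fold change was -1.0 ± 0.16 (SE, 95% interval -1.36 to -0.63, edgeR adjusted p = 0.0375). Of the 14973 tested genes 27.4% had groups that did not overlap, as these 2 members had.

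The fall of Dusp26 kept its call without control replicate 1, at -1.03 (edgeR adjusted p = 0.0166). It lost the call without control replicates 2 (adjusted p = 0.108) and 3 (0.138), without transgenic replicates 1 (0.108), 2 (0.157) and 3 (0.166), with scaling by library totals alone (0.0597), with no filter on low counts (0.0517) and with limma on log2(FPKM + 1) (0.145) or log2(FPKM + 0.1) (0.107). In these fits the log2 fold change lay between -1.10 and -0.85. Those without 1 library called 0 to 44 of all tested genes, against 194 with all libraries.

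Dusp26 and Dusp4 lie 3.71 Mb apart on chromosome 8. The nearest tested protein-coding genes were examined to see whether the differences extended to neighbours. Tnks, 6.6 kb beyond Dusp4, had a log2 fold change of 0.07 ± 0.18 (SE, edgeR adjusted p = 0.863), and Saraf, 636.5 kb on the other side, had 0.09 ± 0.14 (0.752). The next gene after Tnks, Ppp1r3b, a subunit that targets a phosphatase to glycogen, rose from a mean of 0.850 to 4.28 CPM (2.30 ± 0.36, adjusted p = 0.0381), 555.8 kb from Dusp4. It kept its call without control replicate 1 and lost it without any 1 of the other 5 libraries (adjusted p from 0.108 to 0.172). Those 5 fits called 0 to 44 of all tested genes. Beside Dusp26, Rnf122 at 14.8 kb and Tti2 at 53.3 kb had 0.28 ± 0.23 and -0.38 ± 0.20 and did not pass (adjusted p = 0.515 and 0.320).

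**Figure D2:**
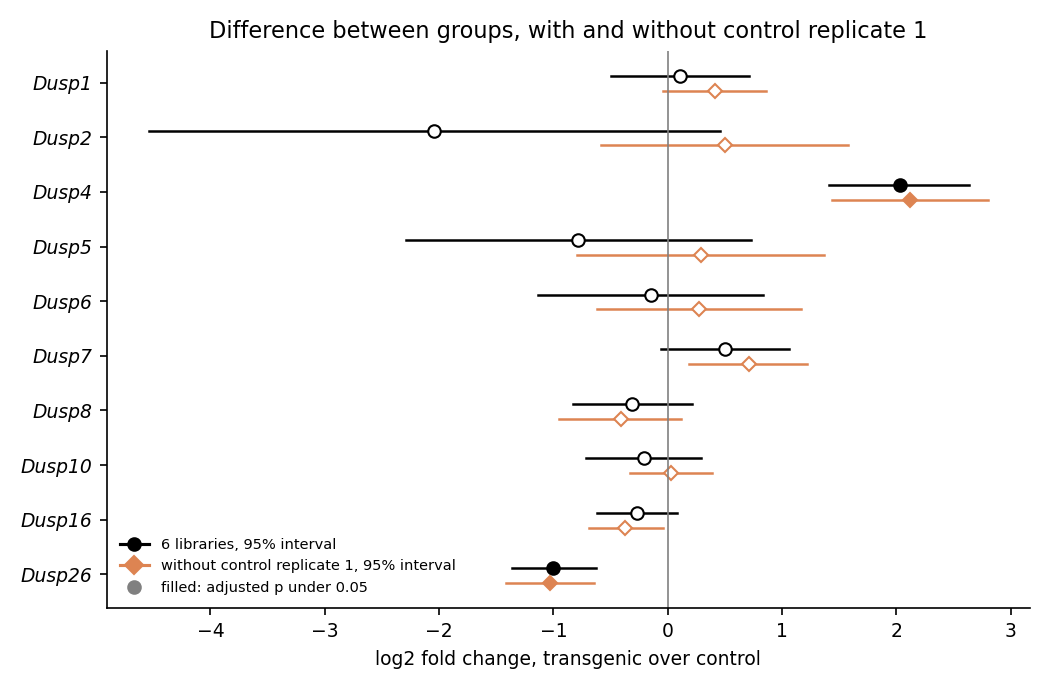
Log2 fold change of each gene between the groups with its 95% interval, from all 6 libraries (black) and without control replicate 1 (orange); filled symbols have an edgeR adjusted p under 0.05. Dusp4 at 2.03 and Dusp26 at -1.0 are filled in both fits, while Dusp2, Dusp5, Dusp6 and Dusp10 change sign when control replicate 1 is left out.

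The other nuclear and inducible members did not pass. Dusp1 (chromosome 17, 26505590 to 26508519), an immediate early gene that acts on p38, JNK and ERK, had 64.5, 45.5 and 29.8 CPM in controls and 54.6, 43.7 and 52.1 CPM in the libraries labelled transgenic. Controls spread more widely than the other group, with a coefficient of variation of 37.3% against 11.5%, and contained all of its values. The log2 fold change was 0.11 ± 0.26 (SE, 95% interval -0.50 to 0.71). Dusp5, an inducible phosphatase of ERK in the nucleus (chromosome 19, 53529109 to 53542431), was the lowest member, with 54, 14 and 9 counts in controls and 22, 12 and 12 in the other group. The log2 fold change was -0.78 ± 0.65 (95% interval -2.29 to 0.73), with 1 high value, in control replicate 1. Without that library the log2 fold change was 0.29 ± 0.46 (interval -0.79 to 1.37).

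Dusp2 (chromosome 2, 127336159 to 127338376), a nuclear phosphatase known from activated lymphocytes, was set by 1 library. It had 412 counts in control replicate 1 and 23, 25, 33, 53 and 23 counts in the remaining 5, or 17.2 CPM against 0.921 to 2.57 CPM. Control replicate 1 was 6.69 times the next highest library. With all libraries the log2 fold change was -2.04 ± 1.07 (SE, 95% interval -4.54 to 0.46), and without control replicate 1 it was 0.50 (interval -0.58 to 1.58).

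Lymphocyte markers were high in the same library. There the 7 B cell genes had 514 CPM in sum, against 6.90 to 56.5 CPM elsewhere, and the 9 T and NK cell genes 131 CPM against 0.709 to 6.01 CPM. Each of these 16 genes was detected in at least 1 library. Among pathway genes, Ptpn7, a lymphocyte tyrosine phosphatase of ERK and p38, had 9.80 CPM there and 0.142 to 1.16 CPM elsewhere. Rasgrp1, a Ras activator of T cells, had 9.72 CPM there and 0.0461 to 0.291 CPM elsewhere. Egr3 and the p38 kinase gene Mapk11 also peaked there, at 9.30 and 5.70 times the next highest library. The part of lymphocyte RNA in the Dusp2 value was not tested.

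**Figure D3:**
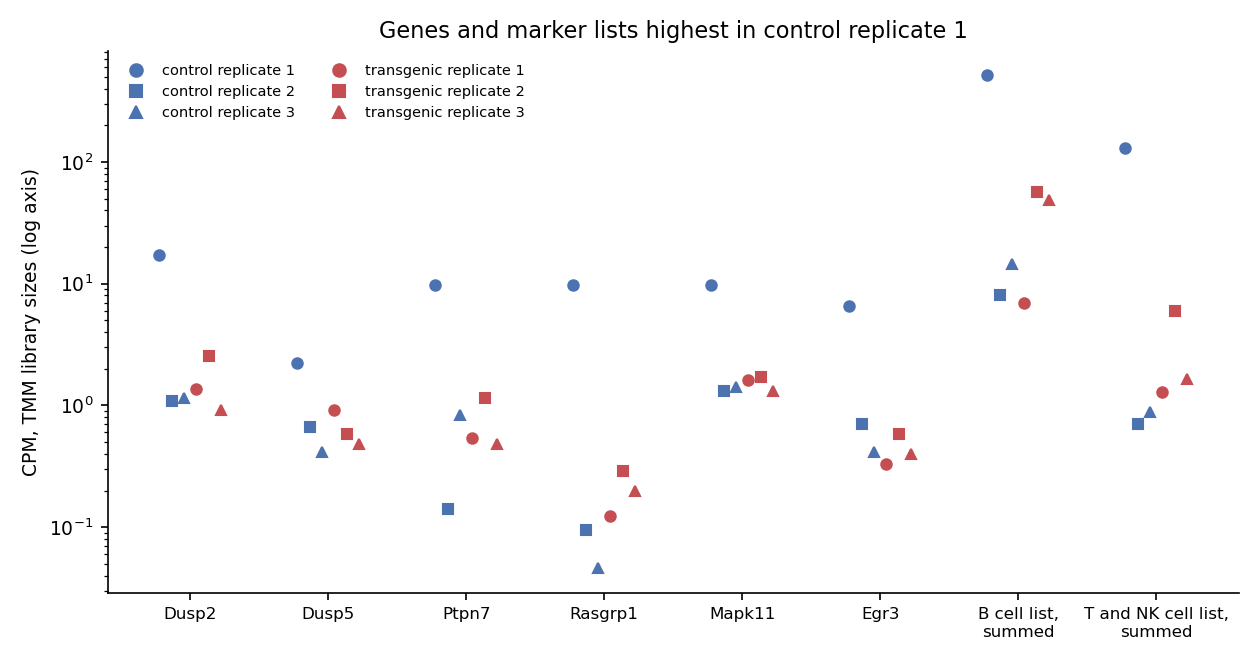
Levels in CPM on a log axis of Dusp2, Dusp5, 4 pathway genes and the summed B cell and T and NK cell marker lists, 1 point per library (blue, control; red, labelled transgenic). Control replicate 1, the blue circle, is the highest point of each column, by 6.69 times for Dusp2 and 2.48 times for Dusp5.

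The cytoplasmic members that prefer ERK, Dusp6 and Dusp7, did not pass. Dusp6 (chromosome 10, 99263231 to 99267489), whose product is the standard feedback inhibitor of ERK, had 11.1, 7.04 and 4.06 CPM in controls and 10.1, 5.28 and 4.69 CPM in the libraries labelled transgenic. The groups overlapped almost fully, with means of 7.41 ± 3.55 and 6.70 ± 2.98 CPM (SD, n = 3 each). Its log2 fold change was -0.15 ± 0.42 (95% interval -1.13 to 0.83). Dusp7 (chromosome 9, 106368632 to 106375724) had 29.1, 19.0 and 20.6 CPM in controls and 41.5, 31.7 and 24.1 CPM in the other group. The highest control exceeded the lowest library labelled transgenic, and the log2 fold change was 0.50 ± 0.24 (95% interval -0.06 to 1.06, edgeR adjusted p = 0.281). Without control replicate 1 it was 0.71 (interval 0.19 to 1.22, adjusted p = 0.0711).

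The members that prefer JNK and p38, Dusp8, Dusp10 and Dusp16, had small negative values and none passed. Dusp8 (chromosome 7, 142079490 to 142095843) had 25.4, 29.5 and 33.6 CPM in controls and 29.3, 16.3 and 25.6 CPM in the libraries labelled transgenic, with the second of these alone below the controls' range. Dusp16 (chromosome 6, 134715468 to 134792625), which keeps JNK inactive and moves between nucleus and cytoplasm, had 20.6, 25.4 and 24.8 CPM and 21.4, 16.7 and 20.5 CPM. Dusp10 (chromosome 1, 184013302 to 184075636) had 12.2, 7.84 and 7.93 CPM and 7.52, 7.90 and 8.77 CPM, with 1 high value, in control replicate 1. Log2 fold changes were -0.31 ± 0.22 for Dusp8, -0.27 ± 0.15 for Dusp16 and -0.21 ± 0.21 for Dusp10 (edgeR adjusted p = 0.455, 0.345 and 0.607). The 95% interval of Dusp16, from -0.62 to 0.08, was the narrowest of the 10.

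Levels of different members were compared as FPKM, which divides by gene length. In controls Dusp26 led with 39.0 ± 6.37 FPKM, followed by Dusp1 at 17.2 ± 6.35, Dusp7 at 6.80 ± 1.58 and Dusp8 at 6.05 ± 0.865 FPKM (SD, n = 3). Dusp26 and Dusp1 did not overlap in controls, with 33.5 FPKM the lowest value of the first and 23.7 FPKM the highest of the second. Dusp7 and Dusp8 overlapped, and so did Dusp10, Dusp16 and Dusp6, between 1.30 and 3.98 FPKM. Dusp2 ranged from 0.542 to 8.52 FPKM and has no stable place in this order. Dusp4 was the ninth, with 1.70 ± 0.191 FPKM, within the range of Dusp6, and Dusp5 was the lowest at 0.446 ± 0.400 FPKM.

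In the libraries labelled transgenic the lead of Dusp26 shrank to an overlap with Dusp1, and Dusp4 stood higher. Dusp26, at 19.5 ± 2.54 FPKM, was still the first by its mean and above Dusp1, at 18.6 ± 2.08 FPKM, in 2 of 3 libraries, and Dusp4 moved to the fourth place with 6.97 ± 2.27 FPKM, overlapping both Dusp7 and Dusp8. Dusp26 made up 38.9%, 54.1% and 49.9% of the summed FPKM of the 10 genes in controls and 24.3%, 31.3% and 30.8% in the other group. Dusp4 made up 1.84% to 2.41% and 6.66% to 12.9%. The ratio of Dusp26 to Dusp4 FPKM was 19.6, 29.3 and 20.7 in controls and 3.64, 2.80 and 2.39 in the libraries labelled transgenic. The sum itself overlapped between the groups, at 67.0 to 96.5 and 64.2 to 70.5 FPKM.

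**Figure D4:**
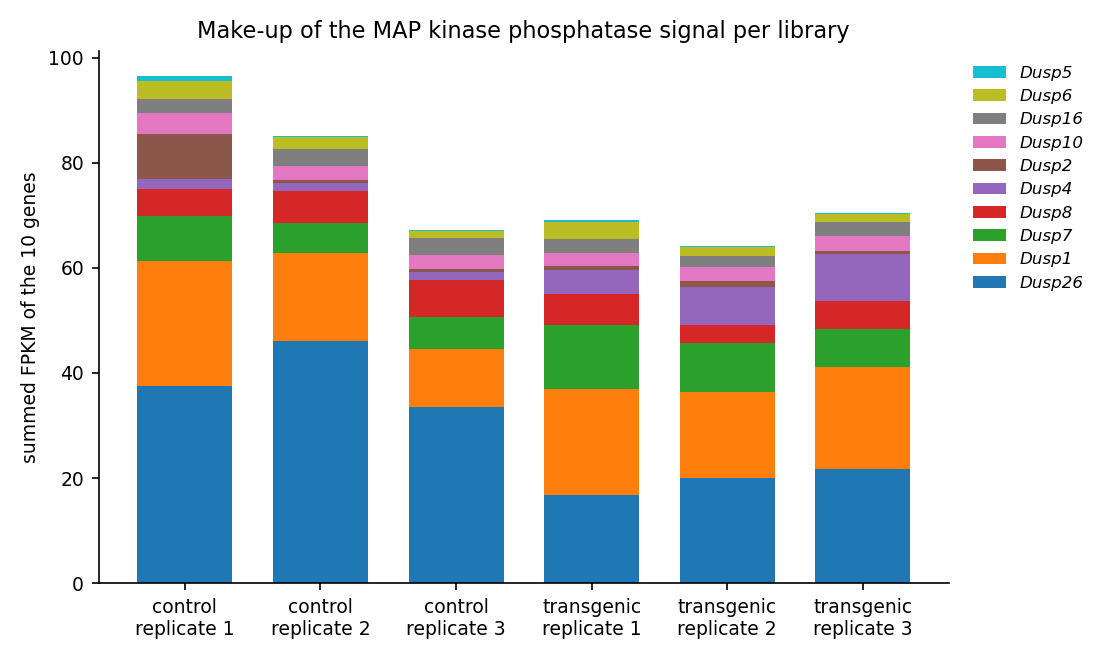
Stacked bars of the FPKM of the 10 genes in each library, on a linear axis from 0. The Dusp26 block is smaller and the Dusp4 block larger in the 3 libraries labelled transgenic, and the total lies between 64.2 and 96.5 FPKM in all 6.

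Dusp1, Dusp5 and Dusp6, which are made on demand after kinase activation, were each highest in control replicate 1, the library that stood apart, and lowest among controls in control replicate 3. Other inducible members did not share this order. Dusp4 was highest in transgenic replicate 3, and Dusp2, highest in control replicate 1, was lowest among controls in replicate 2. Dusp10, of the group that prefers JNK and p38, was also highest in control replicate 1. In the libraries labelled transgenic Dusp5 and Dusp6 were lowest in replicate 3 and Dusp1 in replicate 2. The members' promoters were searched because inducible genes often carry sites for CREB and serum response factor. RefSeq promoters of 300 bases (250 before to 50 after the start, build GRCm38.p6) were matched for 8 of the 10 members, not for Dusp4 and Dusp26. The window of Dusp8 starts from a site about 558 bases, and that of Dusp10 about 21078 bases, from the gene start given above. The 8 windows held 57.3% to 78.7% G and C bases and 19 to 41 CG pairs. Medians over all promoters were 52.7% and 7, so the shares below come from promoters of unlike composition. The part of this in the matches was not tested, and the first 2 motifs below contain a CG pair. Motifs were searched on both strands. The cyclic AMP response element TGACGTCA was found in Dusp1 and, at 2 places, in Dusp8, against 1.79% of 32851 promoters. The E-box CACGTG, which is part of carbohydrate response elements, was found in Dusp1 and Dusp2, against 7.15%. A CArG box, the site of serum response factor, was found at 2 adjoining places in Dusp5, against 1.63% of promoters with at least 1. No match to the AP-1 site TGANTCA, the MEF2 site or the FOXO site GTAAACA was found in these 8 windows, against 7.81%, 0.557% and 3.65% of promoters. The stretches of the Dusp1 promoter (chr17:26508578-26508630, minus strand) and the Dusp5 promoter (chr19:53529048-53529097, plus strand) with these motifs in capitals read as follows.
Dusp1: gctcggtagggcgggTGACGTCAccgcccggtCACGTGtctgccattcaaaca
Dusp5: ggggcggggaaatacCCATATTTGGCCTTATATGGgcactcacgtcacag
The 2 motifs of Dusp1 start 143 and 126 bases before the RefSeq transcription start, and those of Dusp5 start 82 and 72 bases before it. The RefSeq start lies about 46 bases (Dusp1) and about 35 bases (Dusp5) inside the gene as its coordinates are given above. Dusp6 had none of the 6 motifs in its window.

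The rest of the MAP kinase pathway was described by 9 lists with 132 genes. Of the 119 genes tested, 2 rose and 1 fell, or 2.52%, beside 1.30% of all tested genes. The groups did not overlap in 41 of them, or 34.5%, beside 27.4%. The counts of unadjusted p under 0.05 given below for the lists stand beside 3121 of all 14973 tested genes, or 20.8%. Without control replicate 1, where 13.0% of all tested genes passed, 15 rose and 12 fell. The same 13.0% stands beside the genes of each list named below as passing in that fit.

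Of 14 other dual-specificity phosphatases tested, none passed in edgeR's test and 6 had an unadjusted p under 0.05 (20.8% of all tested genes had), with a median log2 fold change of 0.08. Dusp13, a phosphatase of skeletal muscle and testis, had 150, 169 and 178 CPM in controls and 50.2, 95.3 and 97.9 CPM in the libraries labelled transgenic, without overlap (-1.03 ± 0.25, adjusted p = 0.0883). Without control replicate 1 it fell by 1.10 on the log2 scale (adjusted p = 0.0377), and Dusp12 also passed as lower (-0.98, adjusted p = 0.0498). Dusp18 had the next smallest p, at 0.54 ± 0.16 (adjusted p = 0.132). Dusp9, the remaining close relative of Dusp6 and Dusp7, had 0 to 12 counts per library and was not tested. Of 7 other phosphatases that act on MAP kinases none passed, and 2 had an unadjusted p under 0.05. Ppm1a had -0.36 ± 0.13 and Ptprr 0.67 ± 0.28 (adjusted p = 0.186 and 0.236), and Ppm1a passed as lower once control replicate 1 was left out (-0.46, adjusted p = 0.0297).

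**Figure D5:**
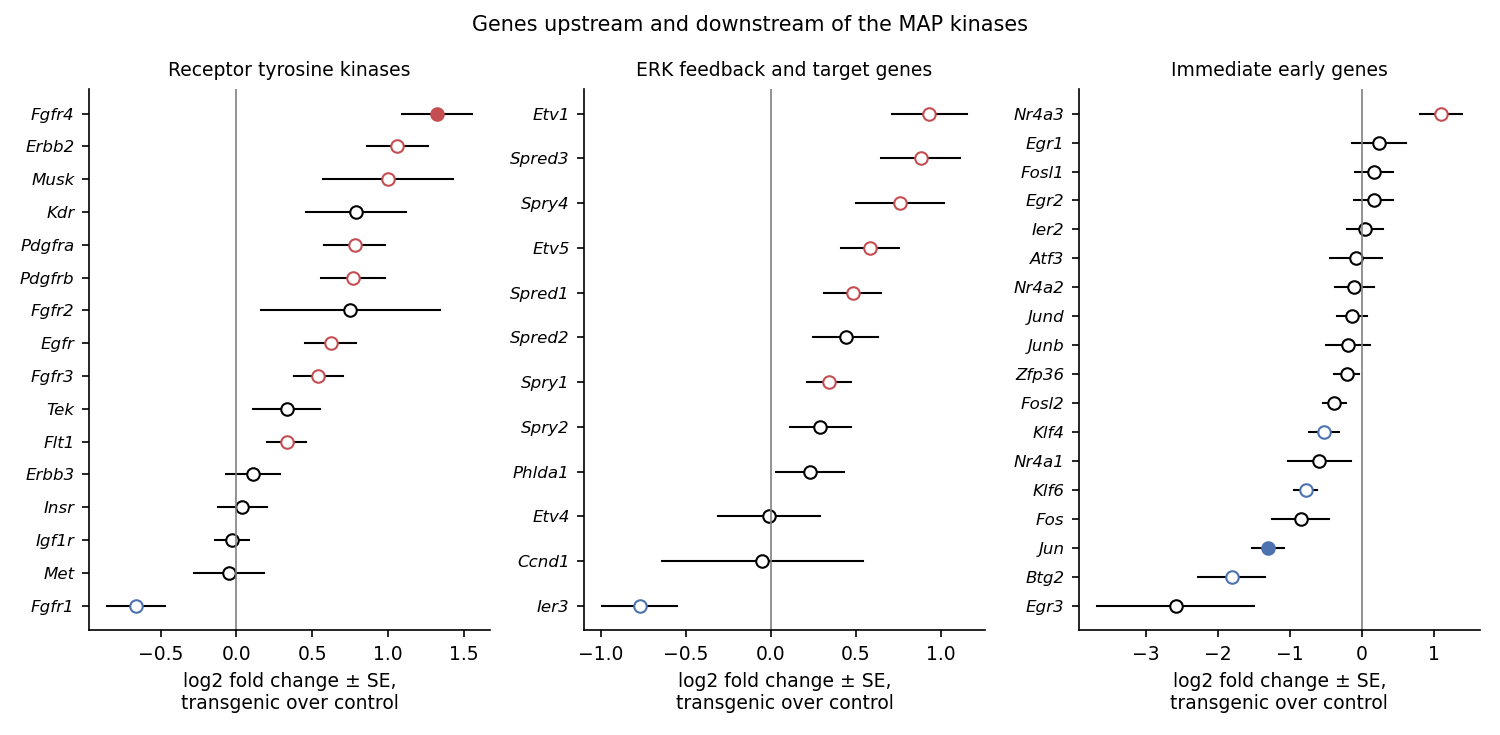
Log2 fold change ± SE of the tested genes of 3 pathway lists; red, all libraries labelled transgenic above all controls; blue, all below; black, overlapping; filled, edgeR adjusted p under 0.05. Fgfr4 at 1.32 and Jun at -1.30 are the filled points.

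Upstream, Fgfr4, a fibroblast growth factor receptor of muscle precursors and liver, was the 1 receptor tyrosine kinase of 16 that passed. It rose from 3.38 ± 0.867 to 8.48 ± 0.707 CPM (SD, n = 3 each; log2 fold change 1.32 ± 0.23, edgeR adjusted p = 0.0463). The median of the list was 0.58, with 8 genes entirely above and 1, Fgfr1, entirely below the controls (27.4% of all tested genes had no overlap). Fgfr1, a receptor of the same family, had 172 to 268 CPM in controls and 120 to 159 CPM in the other group (-0.66 ± 0.19, adjusted p = 0.126). Pdgfra, which is also a marker of fibro-adipogenic progenitors, had 0.78 ± 0.20 (adjusted p = 0.102). In the fit without control replicate 1, Fgfr1 passed as lower (-0.82, adjusted p = 0.0197) and Pdgfra, Pdgfrb and Erbb2 as higher (0.85 to 0.93, adjusted p from 0.0245 to 0.0477). Of 10 genes of Ras activation, Rras, a small GTPase of the Ras family, rose from 26.3 ± 1.46 to 50.1 ± 3.63 CPM (0.93 ± 0.11, adjusted p = 0.0210). Both kept their calls without control replicate 1. Rras lost its call without control replicate 2 or 3 or transgenic replicate 2 or 3 (adjusted p from 0.0812 to 0.14). Fgfr4 lost it without any 1 library other than control replicate 1 (0.108 to 0.213) and with library totals alone (0.0589). The fits without 1 library other than control replicate 1 called 0 to 44 of all tested genes.

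The kinases themselves did not pass. Of 10 MAP kinase genes, Mapk12, which encodes the p38 form of muscle, had 137 to 162 CPM in controls and 104 to 118 CPM in the libraries labelled transgenic (-0.44 ± 0.12, edgeR adjusted p = 0.103). Mapk3, which encodes an ERK kinase, had 25.5 to 31.6 and 35.4 to 45.8 CPM (0.52 ± 0.15, adjusted p = 0.123). Both groups of values were without overlap. Among 21 kinase kinases and scaffolds, Map2k7, which activates JNK, had -0.59 ± 0.16 (adjusted p = 0.110). Among 11 kinases activated by MAP kinases, Mapkapk3 had 0.64 ± 0.15 and Rps6ka3 0.35 ± 0.11 (adjusted p = 0.0845 and 0.136). Without control replicate 1, Mapk3 and Mapkapk3 passed as higher and Mapk12, Map2k7, Map2k6 and Map3k20 as lower, with Map3k5 higher.

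Downstream, none of 12 ERK feedback and target genes passed with all libraries in edgeR's test, while 8 had an unadjusted p under 0.05 (20.8% of all tested genes had). The median log2 fold change was 0.39, 9 of 12 were positive, and 6 lay entirely above and 1, Ier3, entirely below the controls, beside 27.4% of all tested genes without overlap. The transcription factor gene Etv1 had 2.88, 3.17 and 3.46 CPM in controls and 4.92, 6.01 and 7.13 CPM in the libraries labelled transgenic (0.93 ± 0.22, adjusted p = 0.0847). Spred3, an inhibitor of the Ras to ERK step, had 2.34, 2.60 and 2.90 CPM and 3.97, 5.72 and 4.73 CPM (0.88 ± 0.23, adjusted p = 0.102). Etv1, Spred1, Spred2, Spry4 and Ccnd1 passed as higher, and none as lower, without control replicate 1, where Ccnd1 went from -0.05 to 1.11. That fit called 13.0% of all tested genes, 903 higher and 1078 lower.

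Of 18 immediate early genes tested, 1 fell and none rose in edgeR's test, beside 1.30% of all tested genes that passed. The median log2 fold change was -0.20, with 5 positive and 13 negative values, where 46.6% of all tested genes had a positive one. Entirely above the controls lay 1 gene and entirely below them 4, beside 27.4% of all tested genes without overlap. An unadjusted p under 0.05 was found for 6 (20.8% of all tested genes had). Jun, which encodes a subunit of AP-1 and a substrate of JNK, fell from 202 ± 56.6 to 82.2 ± 11.9 CPM (SD, n = 3 each; log2 fold change -1.30 ± 0.22, edgeR adjusted p = 0.0463). Fos had 3.09 to 8.03 and 2.28 to 3.32 CPM, and Egr1 3.21 to 8.05 and 5.14 to 6.69 CPM, both with overlap. Jun lost its call without any 1 library other than control replicate 1 (adjusted p from 0.112 to 0.213), with limma-voom (0.0513) and with no filter (0.057). Those fits without 1 library called 0 to 44 of all tested genes. When control replicate 1 was left out, Jun, Btg2 and Klf6 passed as lower and Nr4a3 and Egr1 as higher.

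The genes whose profile over the 6 libraries was most like that of Dusp4 were found by the root mean square difference of centred log2 CPM among 11008 tested protein-coding genes that averaged 2 CPM or more, without provisional Gm and Rik names. They were Pald1 (0.160), Cpne2 (0.168), Cilp (0.209), Eda (0.215) and Jpt1 (0.226), against a median of 1.06 over all candidates. Pald1 encodes a phosphatase-like protein of blood vessels, Cpne2 a calcium-dependent membrane-binding protein, Cilp a matrix protein of cartilage and fibroblasts, and Eda the ligand ectodysplasin. Their log2 fold changes lay between 1.71 and 2.08, as the measure requires of genes that resemble Dusp4.

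Markers of the cells between the fibres were summed in each library. The 6 genes of fibro-adipogenic progenitors summed to 591 to 895 CPM in controls and 974 to 1142 CPM in the other group, and the 6 of smooth muscle and pericytes to 243 to 291 and 299 to 463 CPM. Of these 12 genes 11 had a positive log2 fold change, 6 did not overlap (27.4% of all tested genes did not), 6 had an unadjusted p under 0.05 (20.8% of all tested genes had), and none passed in edgeR's test. The 6 satellite cell genes summed to 32.3 to 44.6 and 37.9 to 46.8 CPM, with 1, Calcr, past the threshold (edgeR adjusted p = 0.0324). Calcr had 138 counts in the 6 libraries together. It lost its call without any 1 library other than control replicate 1 (adjusted p from 0.0793 to 0.182), in fits that called 0 to 44 of all tested genes. Without control replicate 1, Calcr, Vcam1, Myod1 and Myf5 of the satellite cell list passed as higher. So did Pdgfra and Lum of the progenitors, Notch3 of the pericytes, Plin1 of the adipocytes, Mrc1 of the macrophages and Cd4 of the T and NK cell list. No marker passed as lower there, and 13.0% of all tested genes passed in that fit. With all libraries the 7 macrophage genes had positive log2 fold changes and overlapping sums, at 91.3 to 245 and 151 to 225 CPM. Endothelial markers summed to 231 to 314 CPM in controls and 294 to 600 CPM in the other group, and adipocyte markers to 346 to 637 and 561 to 1081 CPM, both with overlap. Schwann cell markers overlapped at 194 to 326 and 184 to 312 CPM, and so did those of slow fibres at 990 to 1475 and 772 to 1220 CPM. All 7 slow fibre genes had a negative log2 fold change (median -0.3), and none passed in edgeR's test. No marker of these lists was at 0 in all libraries, and of all 12 marker lists only Ly6g, of neutrophils, was. The part of these cells in the values of Dusp4 and Dusp26 was not tested.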

How the data were processed

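RNA from 3 control and 3 transgenic muscles was extracted with Trizol and sequenced from NEBNext Ultra libraries, per the labels' protocols. HISAT2 2.0.5, featureCounts 1.5.0-p3 and GRCm38 are named per the submitters' processing notes. The strand used in counting is "not given in the sources used here". The deposited counts are raw whole numbers per gene, and the authors' FPKM values equal counts over gene length and a scaled library size, within 0.1% for 100% of genes with at least 100 counts. The labels do not say that each library is 1 animal, and p-values cover only the spread among the 6 libraries, which may be technical.

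The test over 14973 genes used edgeR 4.0.16 under R 4.3.3 (TMM, filterByExpr, quasi-likelihood F test, Benjamini-Hochberg threshold 0.05). The SE is the log2 fold change over the square root of F. On the CPM scale 3 counts are 0.120 to 0.145, a limit for counting error only. In counts simulated for this comparison (14698 genes, of which 50 differed by each factor) edgeR found 25 of those set at 2-fold and 49 of those set at 4-fold. It made 136 calls, 5 of them false. The simulated spread of a gene followed from its mean level alone, no simulated library stood apart, and no gene of low level was changed. These figures therefore do not measure recovery or false calls in the real libraries, where control replicate 1 stood apart. Alternatives were DESeq2 1.42.0, limma-voom, limma 3.58.1 on log2(FPKM + 1) and log2(FPKM + 0.1), other scalings and filters, a replicate block, and fits without each library. List counts without control replicate 1 were added after seeing the data.

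The members and lists were chosen with earlier results of these data known. Named by rule were all members, up to 4 genes of a pathway list past the threshold or else the 2 with the smallest p, and the 5 genes nearest to Dusp4. All others were named after their values were seen. Some genes counted in the lists are not reported here by name. Genes overlapping a member took at most 35 counts in all (at Dusp10). Coding bases came from the longest open reading frame of GENCODE M21 transcripts.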

Additional observations from a re-analysis of the deposited data

How the results depend on the processing

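Dusp4 kept a positive log2 fold change in 15 of 15 alternatives (1.52 to 2.26) and passed in 8, with adjusted p from 2.11e-09 to 0.153. Dusp26 kept a negative one in 15 of 15 (-1.10 to -0.85) and passed in 5 (1.88e-05 to 0.166). Dusp7, Dusp8, Dusp16, the pathway genes named by rule, the 5 genes most like Dusp4, Ppp1r3b and Calcr also kept their sign in all 15. Other genes were recomputed without control replicate 1 alone. Among those that turned were Ptpn7 (-2.36 to 0.53), Mapk11 (-1.45 to 0.16), Ccnd1 (-0.05 to 1.11) and Vcam1 (-0.02 to 1.48). Further list genes turned too, such as Igkc (-3.37 to 3.22), Ighm (-1.1 to 1.77), Adipoq (-0.19 to 0.97) and Map3k1 (-0.28 to 0.43). Among the members the sign turned without control replicate 1 for Dusp2 (0.50), Dusp5 (0.29), Dusp6 (0.27) and Dusp10 (0.03), without control replicate 3 for Dusp1 (-0.13) and without transgenic replicate 3 for Dusp6 (0.06). Over the fits without 1 library the values ran from -0.13 to 0.41 for Dusp1, -2.53 to 0.50 for Dusp2, -1.16 to 0.29 for Dusp5, -0.57 to 0.27 for Dusp6 and -0.32 to 0.03 for Dusp10. None of these 5 passed in any fit.

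The count of members past the threshold, 1 higher and 1 lower, ran from 0 to 1 in each direction over the fits without 1 library. It was 0 higher and 0 lower with the replicate block and with limma on either FPKM scale, and 0 lower with library totals alone and with no filter. Of the pathway lists 2 rose and 1 fell. DESeq2 gave 10 and 7, library totals 4 and 2, the block and limma on either FPKM scale 0 and 0, limma-voom 0 lower and no filter 0 lower. Fits without 1 library gave 0 to 15 higher and 0 to 12 lower. Among all genes 118 rose and 76 fell. DESeq2 gave 550 and 447, library totals 205 higher (79.2% of its calls, against 60.8%; its median log2 fold change over all genes was 0.12), no filter 40 lower, limma on log2(FPKM + 1) 0 and 0, and limma on log2(FPKM + 0.1) 10 and 6. Fits without 1 library gave 0 to 903 higher and 0 to 1078 lower. In both directions together, 1981, 3 and 0 genes passed without control replicate 1, 2 or 3. Without transgenic replicate 1, 2 or 3 these counts were 44, 1 and 1. In the fit with no call, without control replicate 3, 2166 genes had an unadjusted p under 0.05, and with limma on log2(FPKM + 1) 3303 had. The cause of these differences was not tested.

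Libraries with the same number were not paired by the data: deviations from group means correlated at -0.024, -0.168 and 0.156. With the replicate block 2 genes rose and 3 fell, and Dusp4 had 1.98 (adjusted p = 0.0870) and Dusp26 -0.99 (0.0907). Depth limits Dusp5, with 9 to 54 counts, and Dusp2 outside control replicate 1.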
